A study of Homo sapiens with 6 samples.

Results

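The proteasome is the barrel-shaped protease that degrades ubiquitin-tagged proteins. The transcripts described here are the protein-coding genes whose GENCODE symbol is PSM followed by a letter from A to G and a number. There were 48 such genes among the 60675 gene identifiers that were counted, and 46 of them were among the 15261 genes with enough reads to be tested. PSMA8, an alpha subunit of the testis proteasome, and PSMB11, the catalytic subunit of the thymus proteasome, had 0 reads in all 6 libraries and were not tested. The symbol rule leaves out subunits and assembly factors with other names, such as ADRM1, SEM1 and POMP, and these were taken from a separate list.

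The libraries came from MDA-MB-231 cells, an established human triple-negative breast cancer line. The 3 control libraries were from cells with no added vitamin C, and the 3 vitamin C libraries were from cells given 100 µM vitamin C, as sodium ascorbate, for 3 days. Total RNA was depleted of ribosomal RNA and sequenced. The replicates were separate wells of the same line, so each p-value measures the spread between wells.

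A core particle, called 20S, is built from alpha rings that gate the entrance and beta rings that hold the proteolytic sites. A regulatory particle, called 19S, binds ubiquitinated proteins, removes the ubiquitin and unfolds the substrate with a ring of ATPases. Interferon induces alternative catalytic subunits, PSMB8, PSMB9 and PSMB10, which replace PSMB5, PSMB6 and PSMB7 in newly assembled cores and give the immunoproteasome, known for cutting peptides that are presented on MHC class I. PSME1 and PSME2 form PA28, an interferon-inducible cap of the core. The interferon response of these genes is known to run through factors such as IRF1, which bind interferon-stimulated response elements (ISREs), and the constitutive subunits are known to be controlled by NFE2L1, which binds antioxidant response elements (AREs).

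The promoters of 5 interferon-inducible members are shown, since PSMB8 was the member that rose and the others are the subunits known to be induced with it. Each sequence is RefSeq sequence of build GRCh38.p14, from 250 bases before a transcription start to 50 bases from it, written 5′ to 3′ on the strand of the gene. Capitals mark the letters of the ISRE core, GAAANNGAAA, found on either strand.
PSMB8, chr6:32843998-32844297, minus strand: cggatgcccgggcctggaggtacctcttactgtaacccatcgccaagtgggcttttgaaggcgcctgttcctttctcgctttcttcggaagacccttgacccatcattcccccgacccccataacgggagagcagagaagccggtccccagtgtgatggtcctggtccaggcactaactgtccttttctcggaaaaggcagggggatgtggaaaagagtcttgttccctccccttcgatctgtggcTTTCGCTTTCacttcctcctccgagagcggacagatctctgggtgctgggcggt
PSMB10, chr16:67936801-67937100, minus strand: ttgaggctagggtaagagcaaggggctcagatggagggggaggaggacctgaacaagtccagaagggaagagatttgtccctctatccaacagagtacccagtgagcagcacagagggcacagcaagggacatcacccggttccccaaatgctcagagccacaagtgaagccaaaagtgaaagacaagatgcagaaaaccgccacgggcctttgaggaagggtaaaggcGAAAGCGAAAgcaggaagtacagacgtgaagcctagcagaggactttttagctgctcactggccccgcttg
PSME2, chr14:24146561-24146860, minus strand: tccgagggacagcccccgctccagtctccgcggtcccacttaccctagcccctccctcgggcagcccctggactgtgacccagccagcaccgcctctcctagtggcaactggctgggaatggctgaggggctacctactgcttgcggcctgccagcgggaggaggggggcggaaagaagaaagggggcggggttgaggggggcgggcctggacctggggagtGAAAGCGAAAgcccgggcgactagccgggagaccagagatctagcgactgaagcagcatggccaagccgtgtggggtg
PSME1, chr14:24135944-24136243, plus strand: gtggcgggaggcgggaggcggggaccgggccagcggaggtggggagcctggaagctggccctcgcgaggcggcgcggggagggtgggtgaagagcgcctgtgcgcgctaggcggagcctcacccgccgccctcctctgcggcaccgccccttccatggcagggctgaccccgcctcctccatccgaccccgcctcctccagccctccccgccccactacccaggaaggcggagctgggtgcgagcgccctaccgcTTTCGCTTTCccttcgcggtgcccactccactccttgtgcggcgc
PSMB9, chr6:32853942-32854241, plus strand: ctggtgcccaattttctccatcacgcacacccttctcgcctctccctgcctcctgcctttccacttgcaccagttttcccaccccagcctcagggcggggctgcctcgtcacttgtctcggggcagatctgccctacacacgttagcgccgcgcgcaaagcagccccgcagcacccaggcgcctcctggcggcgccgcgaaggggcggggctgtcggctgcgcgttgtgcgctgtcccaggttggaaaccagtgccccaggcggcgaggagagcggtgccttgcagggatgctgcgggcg
A window was available for 42 of the 48 members, with 51 windows in all, and for PSMA7, PSMB1, PSMB6, PSMB7, PSMD4 and PSMG3 there was none. The ISRE core was in 7 of the 51 windows, those of PSMA4, PSMB4, PSMB8, PSMB10, PSME1, PSME2 and PSMG4, and in 3.57% of the 35116 promoter windows of all genes. PSMB8, PSMB10, PSME1, PSME2 and PSMG4, a chaperone of core assembly, held the same 10 letters, GAAAGCGAAA, on one strand or the other. That exact string, chosen after the matches were seen, was in 0.0997% of all windows. Read along the gene strand, the match began at position -4 from the start site in PSMB8, -21 in PSMB10, -28 in PSME2, -33 in PSMG4 and 6 in PSME1. In PSMB8 and PSME1 the string is on the other strand, so that base is the last of GAAAGCGAAA. PSMB8 has a further window, chr6:32844630-32844929, without the core, and the PSMB9 window had none. The ARE core, TGACNNNGC, searched on both strands with no overlap with the ISRE core, was in 15 of the 51 windows of the members and in 13.3% of all windows. A match is a run of letters and says nothing on binding in these cells.

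Each library held 13434130 to 22373591 reads in genes, and between 24.2% and 49.5% of its read pairs were unmapped, most in vitamin C 2. Vitamin C 1 and 2 had the fewest gene reads (13434130 and 14225257) and the most unmapped pairs (40.7% and 49.5%). Vitamin C 3 had 19553914 gene reads and 24.7% unmapped, both within the range of the controls. The part of this in the differences between the treated libraries was not tested. Levels are given as CPM, that is gene counts put on the same scale for each library with TMM factors. Leukocyte markers summed to less than 1 CPM in each library, and of the luminal markers ESR1 was at 0 reads. The summed level of 10 luminal markers was 471.6 to 597.4 CPM in the control libraries and 619.2 to 707.7 CPM with vitamin C, and that of 6 mesenchymal markers was 3439 to 3510 CPM and 3623 to 3936 CPM. Of these, EPCAM, KRT8 and FN1 were called higher, and SPARC, a mesenchymal marker, was at 0.22 to 0.50 CPM. The mesenchymal markers went both ways. The mean was higher with vitamin C for FN1 (318 and 557 CPM) and for CD44 (962 and 1143 CPM, not called). It was lower for VIM (1276 and 1256 CPM), ZEB1 (163 and 151 CPM) and CAV1 (749.8 and 632 CPM), which were not called. The sums moved with the groups, and their part in the results on the proteasome was not tested.

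After vitamin C, PSMB8 was the member that rose and PSMB6, PSMD13 and PSMG3 were the members that fell. The calls are edgeR quasi-likelihood tests with Benjamini-Hochberg adjustment over the 15261 genes, at an adjusted p under 0.05. These 4 members were 8.7% of the 46 tested, beside 7.08% of all genes tested, so that the share of members called was near the background. The 1 higher member was 2.17%, against 3.6% of all genes, and the 3 lower members were 6.52%, against 3.48%. With DESeq2, PSMB8 was higher (2.17% of members, 4.35% of the 13472 genes with an adjusted p). PSMA1, PSMB3, PSMD2 and PSMD14 were added to the same 3 lower members by DESeq2, which made 15.2% of members and 6.36% of genes.

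Most of the other members were a little lower in the vitamin C libraries without passing the test. The log2 fold change was below 0 for 38 of the 46 members (82.61%), and for 47.61% of all genes tested. Its median was -0.14 for the members and 0.02 for all genes. In 21 members (45.7%) each vitamin C library was below each control library, which held for 16.6% of all genes, and in 3 members (6.52%) each was above, which held for 15.7%. At an unadjusted p under 0.05, 13 members (28.3%) were lower and 4 (8.7%) higher, and 13.1% and 14.3% of all genes. The members are measured in the same 6 libraries and are not independent of each other. Under each of the other normalizations, filters, tools and left-out libraries the median of the members stayed 0.11 to 0.18 below that of all genes on the log2 scale.

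The members together took 0.662%, 0.625% and 0.631% of gene reads in the control libraries, in the order of their numbers, against 0.584%, 0.587% and 0.598% in the treated ones. The groups did not overlap. In CPM the sum was 6402 ± 233 (SD, n = 3) in the control and 5910 ± 121 with vitamin C. In bulk RNA, fewer cells with these transcripts and less of them per cell cannot be told apart.

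**Figure D1:**
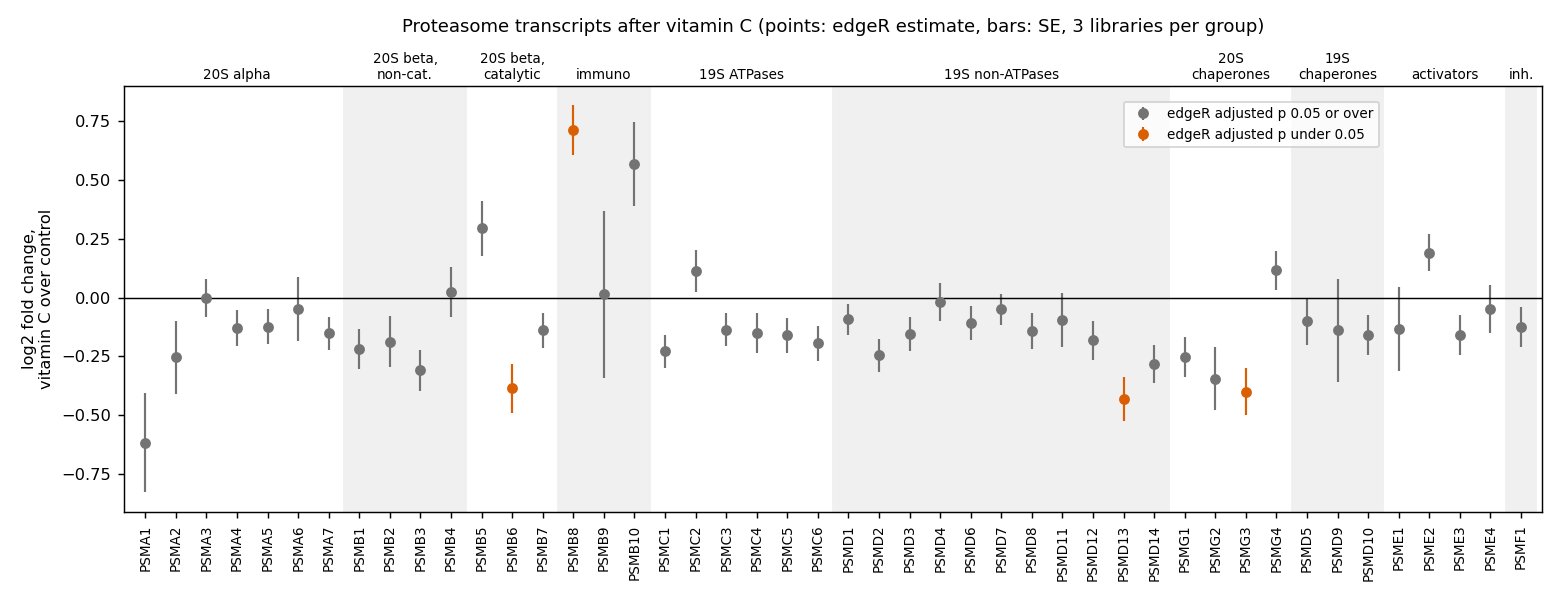
The log2 fold change estimated by edgeR for treated over control cells (y axis) of the 46 tested members (x axis, grouped by role), with bars for the SE, 3 libraries per group. PSMB8 is the orange point above 0, PSMB6, PSMD13 and PSMG3 are the orange points below 0, and 38 of the 46 points lie below the line at 0.

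PSMB8, the inducible subunit with chymotrypsin-like activity, lies on chr6:32840717-32844679 (minus strand, GRCh38) in the MHC region. Its level was 30.6, 36.1 and 35.6 CPM in the control libraries, given here and throughout in the order of replicate 1, 2 and 3, against 47.8, 60.8 and 58.7 CPM in the treated ones. All 3 treated libraries were above all 3 controls, and the mean rose from 34.1 ± 3.07 to 55.8 ± 6.95 CPM (SD, n = 3). This made a log2 fold change of 0.71, with SE 0.11 and an adjusted p of 0.00787. It passed the test under every alternative run, with log2 fold changes of 0.57 to 0.80 and adjusted p up to 0.0356.

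PSMB9, the inducible partner of PSMB6, has an annotated span on the opposite strand, chr6:32844136-32859851, that overlaps that of PSMB8. The start site of its promoter window shown above, chr6:32853942-32854241, lies beyond the span of PSMB8. The canonical transcript of PSMB9 shared no exon bases with another gene. PSMB9 stood at 7.86, 7.64 and 8.26 CPM in the control libraries and at 5.49, 3.55 and 14.1 CPM in vitamin C 1, 2 and 3. Vitamin C 1 and 2 were below all controls and vitamin C 3 was above all of them, so that the CV went from 3.97% to 72.6%. The log2 fold change was 0.01 (SE 0.35, adjusted p = 0.985). Without vitamin C 3 it was -0.81 with an adjusted p of 0.0188, so the estimate rests on that library. With all libraries its sign also changed with the method, at -0.05 with DESeq2, -0.17 with limma-voom and 0.05 with upper-quartile factors.

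PSMB10, the inducible partner of PSMB7, was a low transcript. It was at 2.90, 3.51 and 2.69 CPM in the control and at 4.23, 4.20 and 5.02 CPM with vitamin C. The groups did not overlap, while the test was missed (log2 fold change 0.57, SE 0.18, adjusted p = 0.0697). With edgeR's likelihood ratio test the adjusted p was 0.0347. An overlapping gene on the same strand shares 56.09% of the canonical transcript of PSMB10, so its counts are uncertain.

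The constitutive partners did not move as one. PSMB5, the chymotrypsin-like subunit, was at 153, 149.7 and 169 CPM in the control and 181, 234 and 164 CPM with vitamin C, with vitamin C 3 inside the range of the control. On the log2 scale the change was 0.29 (SE 0.12, adjusted p = 0.131), and 0.40 without vitamin C 3 (adjusted p = 0.0292). PSMB6, the caspase-like subunit on chr17:4796144-4798502, fell from 66.6, 59.8 and 53.5 CPM to 47.6, 40.0 and 49.9 CPM, and the groups did not overlap. The log2 fold change was -0.39 (SE 0.11, adjusted p = 0.0495), just past the threshold. It was missed with upper-quartile factors (adjusted p = 0.0606), with limma-voom (0.0545) and with a block for the replicate number (0.0604). PSMB7, the trypsin-like subunit, was at 241, 223 and 209 CPM in the control and 206, 205 and 201 CPM with vitamin C (log2 fold change -0.14, SE 0.07, adjusted p = 0.252).

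Since each inducible subunit takes the place of its partner, the ratio of each pair was compared per kilobase of exon. PSMB8 had a log2 ratio to PSMB5 of -3.37 ± 0.14 (SD, n = 3) in the control and -2.95 ± 0.26 with vitamin C, which is 9.64% and 12.95% of PSMB5. These shares depend on the length used, and on canonical transcripts they were 20.1% and 27.0%, while the difference between the groups was the same. Each treated library was above each control, and the difference was 0.42 (two-sided exact permutation p = 0.1, adjusted p = 0.15 over 3 pairs). The ratio of PSMB10 to PSMB7 went from -6.08 ± 0.20 to -5.38 ± 0.16, or 1.48% and 2.41% of PSMB7 (1.35% and 2.21% on canonical transcripts), again without overlap (exact permutation p = 0.1, adjusted p = 0.15). For PSMB9 to PSMB6 the values were -4.12 ± 0.20 and -4.02 ± 0.87, or 5.74% and 6.17% of PSMB6 (10.7% and 11.5% on canonical transcripts, exact permutation p = 1.0), and without vitamin C 3 the difference turned from 0.10 to -0.39. With 3 libraries against 3, p cannot go below 0.1, so none of the 3 pairs could pass.

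**Figure D2:**
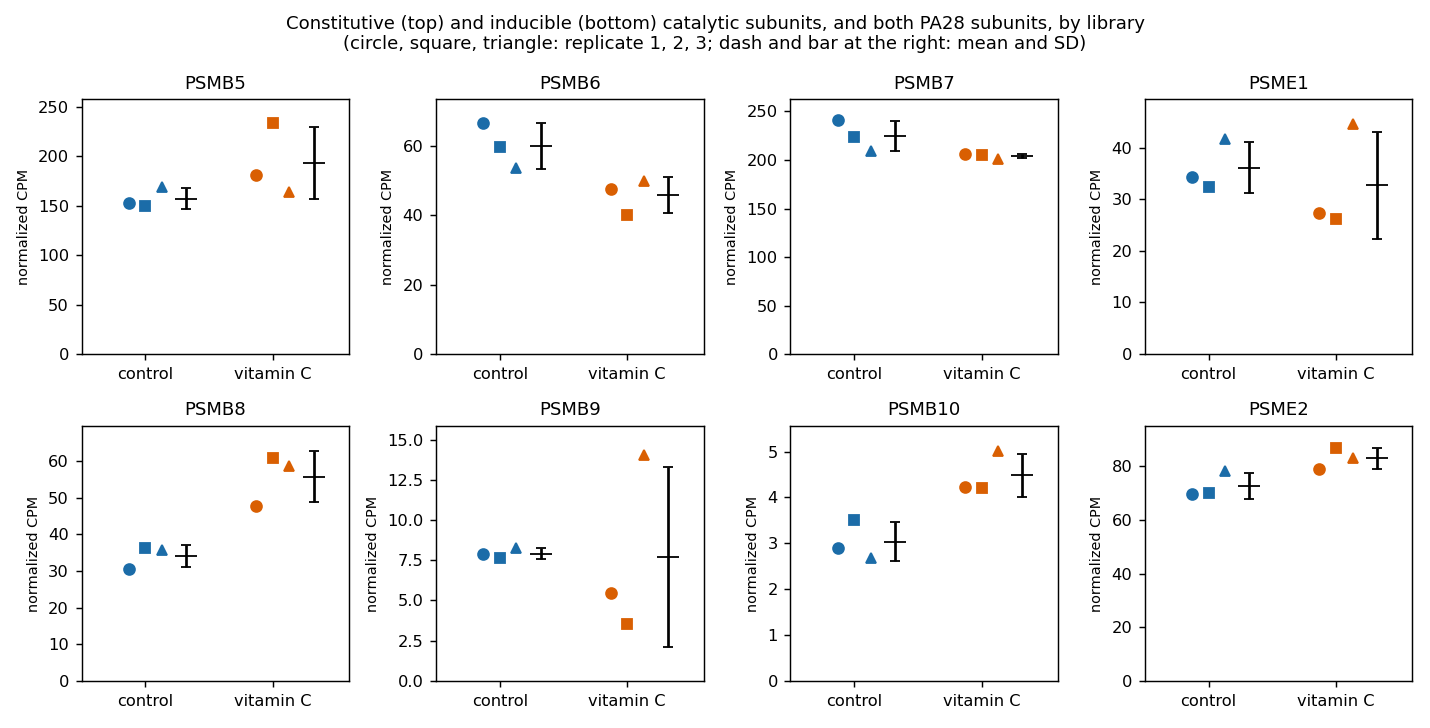
Normalized CPM (y axes, from 0) of the catalytic subunits and the PA28 subunits in each control (blue) and vitamin C (orange) library, with circles, squares and triangles for replicates 1, 2 and 3 and the mean ± SD at the right. PSMB8, PSMB10 and PSME2 show no overlap between groups on the higher side, and PSMB9 shows vitamin C 3 at 14.1 CPM above the controls and the other 2 treated libraries below them.

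The PA28 subunits differed from each other. PSME2 was at 69.6, 69.96 and 78.3 CPM in the control and 78.9, 86.9 and 83.0 CPM with vitamin C, with all treated libraries higher by a narrow margin (log2 fold change 0.19, SE 0.08, adjusted p = 0.142). PSME1 was at 34.3, 32.4 and 41.7 CPM and at 27.3, 26.2 and 44.6 CPM, with vitamin C 3 the highest of all 6 libraries (log2 fold change -0.13, SE 0.18, adjusted p = 0.667). Without vitamin C 3 its log2 fold change was -0.44 with an adjusted p of 0.0307. PSME3 and PSME4, which encode the nuclear activators PA28 gamma and PA200, were not called (log2 fold changes -0.16 and -0.05). PSMF1, a protein inhibitor of the core, was at 74.3, 69.3 and 71.0 CPM and at 65.2, 59.3 and 72.2 CPM (log2 fold change -0.12, SE 0.09, adjusted p = 0.373). Of the activators and the inhibitor, PSME2 alone had an unadjusted p under 0.05 and DESeq2 called 0.

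In the alpha ring, which gates the core, all 7 log2 fold changes were below 0, beside 47.61% of all genes tested. They ran from -0.62 to -0.0013 with a median of -0.13, and 0 were called by edgeR. PSMA1 and PSMA7 had an unadjusted p under 0.05, and DESeq2 called PSMA1. PSMA1 stood at 19.7, 17.4 and 12.7 CPM in the control and at 10.5, 7.39 and 14.1 CPM with vitamin C, with vitamin C 3 inside the control range (log2 fold change -0.62, SE 0.21, adjusted p = 0.0905). A read-through gene on the same strand shares 67.03% of its canonical transcript, so its counts are uncertain. The counts of PSMA2 (100% shared) and PSMA6 (81.43% shared) are uncertain in the same way. The summed level of the ring was 1134 ± 11.1 CPM in the control and 1045 ± 19.6 CPM with vitamin C (SD, n = 3).

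Of the 4 beta subunits without a proteolytic site, PSMB1, PSMB2 and PSMB3 had log2 fold changes below 0 and PSMB4 was at 0.02. None was called by edgeR, PSMB1 and PSMB3 had an unadjusted p under 0.05, and DESeq2 called PSMB3. PSMB3 was at 46.7, 42.3 and 40.7 CPM in the control and 35.9, 33.0 and 35.8 CPM with vitamin C, without overlap (log2 fold change -0.31, SE 0.09, adjusted p = 0.0525).

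In the regulatory particle, PSMD13 was the subunit that fell. PSMD13, a scaffold subunit of the lid on chr11:236966-252984, was at 106, 92.6 and 94.4 CPM in the control and at 69.4, 66.1 and 81.4 CPM with vitamin C, and the groups did not overlap. The change on the log2 scale was -0.43 (SE 0.09, adjusted p = 0.0259). All 11 non-ATPase subunits had log2 fold changes below 0, beside 47.61% of all genes tested, with a median of -0.14. In 9 of them the vitamin C libraries were all below the controls, which held for 16.6% of all genes. The list includes PSMD2 (635.6 ± 28.8 and 536.6 ± 13.4 CPM, adjusted p = 0.0563), a large base subunit, and PSMD14 (202 ± 17.4 and 166 ± 8.15 CPM, adjusted p = 0.0574), the deubiquitinase of the lid. PSMD4, a ubiquitin receptor, had a log2 fold change of -0.02. The sum of the 11 was 2499 ± 106 CPM in the control and 2230 ± 51.7 CPM with vitamin C.

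None of the 6 ATPases, which unfold the substrate, was called by edgeR or DESeq2, and PSMC1 and PSMC6 had an unadjusted p under 0.05. PSMC1 was at 96.1, 91.0 and 99.5 CPM in the control and 81.6, 79.7 and 83.2 CPM with vitamin C, without overlap (log2 fold change -0.23, SE 0.07, adjusted p = 0.068). NRDE2 on the opposite strand shares 83.23% of the canonical transcript of PSMC1, and the pseudogene PSMC1P1 held a mean of 984.5 reads, so the counts of PSMC1 are uncertain. PSMC2 was the ATPase with a log2 fold change above 0 (0.11, SE 0.09, adjusted p = 0.448).

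Among the assembly chaperones, PSMG3 fell. PSMG3, on chr7:1567332-1571005, pairs with PSMG4 and helps to build the alpha ring. It was at 22.4, 19.2 and 20.04 CPM in the control and at 15.05, 15.5 and 16.1 CPM with vitamin C, with a gap between the groups (log2 fold change -0.40, SE 0.10, adjusted p = 0.0393). The call was missed with a block for the replicate number (adjusted p = 0.0671) and with libraries thinned to the shallowest (0.0549). For PSMG4 the log2 fold change stood at 0.11 (SE 0.08, adjusted p = 0.394). The pair PSMG1 and PSMG2 had log2 fold changes of -0.25 and -0.34 (adjusted p = 0.088 and 0.121). The chaperones of the regulatory base, PSMD5, PSMD9 and PSMD10, were not called by either tool and 0 of them had an unadjusted p under 0.05. PSMD10, the oncoprotein gankyrin, was at 51.7, 46.7 and 49.0 CPM and at 41.0, 43.6 and 47.1 CPM, with an overlap between the groups (log2 fold change -0.16, SE 0.08, adjusted p = 0.245).

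The 3 lower calls did not hold in most fits with fewer libraries. PSMB6, PSMD13 and PSMG3 each missed the threshold when control 1, control 2, vitamin C 1 or vitamin C 2 was left out. In these fits 0 members were called lower by edgeR, and 9 to 13 were lower at an unadjusted p under 0.05. The share of all genes at that unadjusted threshold was not counted in these fits, and with all libraries it was 13.1%. Without control 3 there were 2 lower calls (PSMB6 and PSMD13), and without vitamin C 3 there were 10. These 10 were PSMB6, PSMD13 and PSMG3 with PSMA1, PSMB1, PSMB3, PSMB9, PSMD14, PSME1 and PSMG2, and PSMB5 joined PSMB8 as higher. The CV between treated libraries was highest for PSMB9 (72.6%), PSME1 (31.6%) and PSMA1 (31.3%), and in each of these vitamin C 3 was the highest treated library. With 1 library left out, the log2 fold change was -0.30 to -0.47 for PSMB6, -0.37 to -0.53 for PSMD13 and -0.34 to -0.45 for PSMG3. Calls over all genes fell as well, from 531 lower to 59 at the lowest, without control 1, and rose to 958 without vitamin C 3.

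Transcripts with other names that belong to the pathway were read from 5 lists, which hold 45 genes, of which 44 were tested, 3 were higher and 4 lower, beside 3.6% higher and 3.48% lower among all genes tested. In the list of other subunits and assembly and bound factors, 2 of 12 were lower and 0 higher. POMP, the chaperone that completes the core and binds its beta subunits, was at 112.5, 97.8 and 88.5 CPM in the control and at 70.3, 59.2 and 77.1 CPM with vitamin C. The groups did not overlap, and POMP fell (log2 fold change -0.53, SE 0.11, adjusted p = 0.0231). PITHD1, a proteasome-interacting protein, was at 33.0, 27.6 and 25.4 CPM and at 18.98, 20.4 and 22.6 CPM, again without overlap (log2 fold change -0.47, SE 0.12, adjusted p = 0.0374). Both calls were lost when control 1, control 2 or vitamin C 1 was left out, and that of PITHD1 also without vitamin C 2. PITHD1 was also missed with a block for the replicate number (adjusted p = 0.0575) and with libraries thinned to the shallowest (0.0571).

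Of 6 genes that encode or activate ubiquitin, 2 were called lower and 0 higher, beside 3.48% lower and 3.6% higher among all genes tested. RPS27A, which encodes ubiquitin fused to a ribosomal protein, was at 619, 503 and 499 CPM in the control and at 389, 439 and 443 CPM with vitamin C, and the groups did not overlap (log2 fold change -0.35, SE 0.10, adjusted p = 0.0495). Its call was lost without any 1 library other than vitamin C 3. It was also missed with upper-quartile factors (adjusted p = 0.0616) and with a block for the replicate number (0.0864). The same held with libraries thinned to the shallowest (0.05595) and with GC content and length offsets (0.0768). The stress-inducible polyubiquitin gene UBB had a log2 fold change of -0.05 and was not called.

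Of 12 factors that deliver substrates, 0 were called by edgeR or DESeq2. At an unadjusted p under 0.05, beside 13.1% lower and 14.3% higher among all genes tested, 2 of these factors were lower and 1 higher. The most abundant in CPM, VCP, the segregase that extracts ubiquitinated proteins, was at 557, 571 and 578 CPM and at 547, 552 and 571 CPM (log2 fold change -0.03, SE 0.07, adjusted p = 0.802). Of 7 genes of proteasome transcription control, 0 were called by either tool. At an unadjusted p under 0.05, 1 was lower, beside 13.1% of all genes tested. This gene, DDI2, is also in the list of substrate delivery and was counted there as well. NFE2L1 was at 189.995, 186 and 209 CPM in the control and 200.2, 191 and 186 CPM with vitamin C, and the groups overlapped (log2 fold change -0.02, SE 0.07, adjusted p = 0.894).

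In the list of antigen peptide supply and the interferon gamma response, 3 of the 8 genes tested were higher and 0 lower. Among all genes tested 3.6% were higher and 3.48% lower, and the list was chosen with earlier results of these data known. IRF1, the transcription factor that is known to induce PSMB8, PSMB9 and PSMB10, was at 38.5, 36.5 and 36.5 CPM in the control and at 66.6, 63.9 and 55.3 CPM with vitamin C. The lowest treated library stood well above the highest control, and the log2 fold change was 0.74 (SE 0.09, adjusted p = 0.00279). It passed under every alternative run, with 0.68 to 0.81. NLRC5, the transactivator of MHC class I genes, was at 20.3, 23.4 and 24.0 CPM and at 32.1, 31.7 and 31.9 CPM (log2 fold change 0.50, SE 0.09, adjusted p = 0.0161). ERAP2, which trims peptides in the endoplasmic reticulum, was at 29.7, 28.7 and 27.6 CPM and at 35.1, 38.2 and 38.2 CPM (log2 fold change 0.38, SE 0.08, adjusted p = 0.0284). The call of NLRC5 was lost without control 1 or control 2, and that of ERAP2 without each control, without vitamin C 1 or 2 and with a block for the replicate number (adjusted p = 0.0545). With 1 library left out the log2 fold change was 0.42 to 0.54 for NLRC5 and 0.34 to 0.41 for ERAP2. TAP1, the peptide transporter, was at 0.33 on the log2 scale (adjusted p = 0.0628) and B2M, the light chain of MHC class I, at 0.21 (adjusted p = 0.152). TAP2 had 0 reads in every library.

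**Figure D3:**
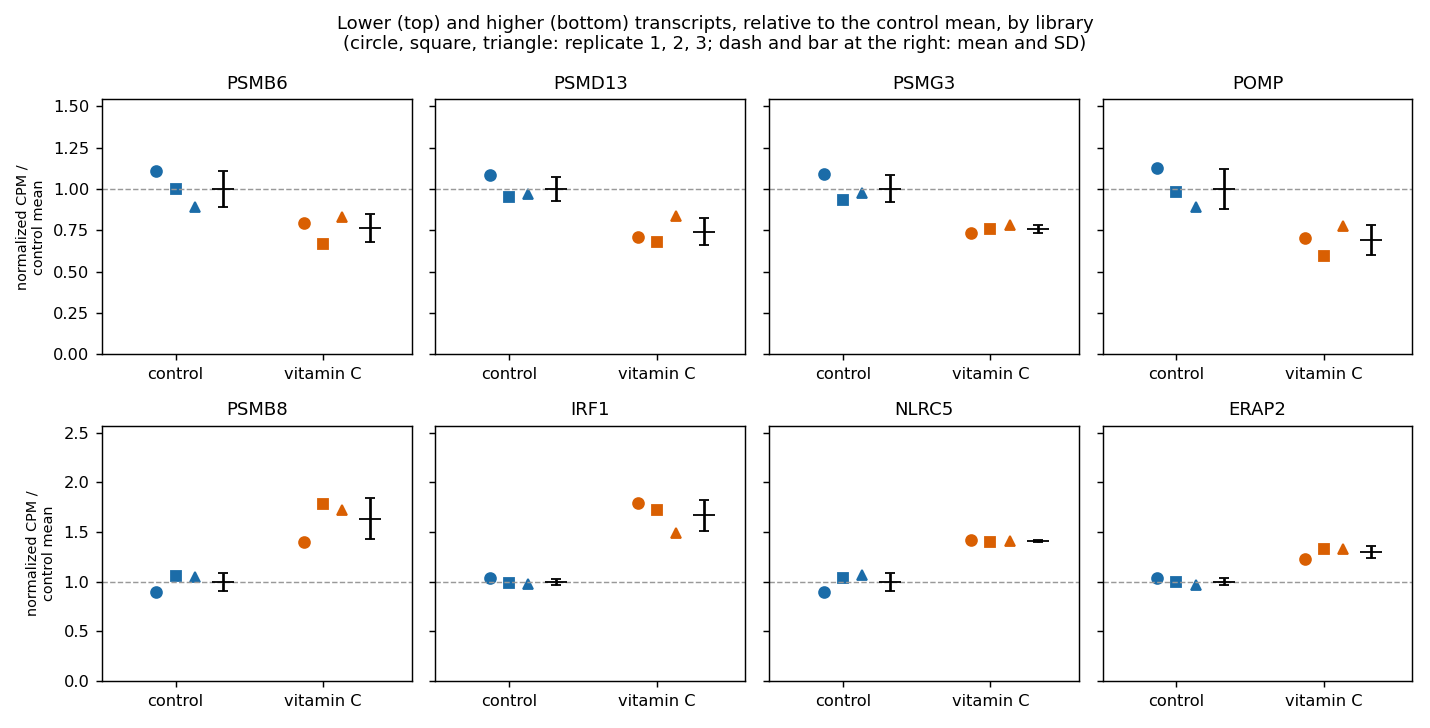
CPM of each library over the control mean (y axes, from 0) for PSMB6, PSMD13, PSMG3 and POMP (top) and PSMB8, IRF1, NLRC5 and ERAP2 (bottom), control in blue and vitamin C in orange, with circles, squares and triangles for replicates 1, 2 and 3 and the mean ± SD at the right. In each panel the groups do not overlap.

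Levels of different members were compared as TPM on the length of all annotated exons of a gene. In the control, the 31 constitutive core and regulatory subunits had a median of 147 TPM, from 3.84 TPM for PSMA2 to 791 TPM for PSMA7, although the assembled particle holds these subunits in fixed proportions. PSMA1, PSMA2 and PSMA6 were at 3.84 to 21.6 TPM, and a same-strand read-through gene shares 67.03%, 100% and 81.43% of their canonical transcripts. These read-through genes held at most 1.5 reads on average, and each deposited file sets reads that were ambiguous between genes apart on a line of its own. The part of this in the low levels was not tested. The other 28 ranged from 40.6 TPM for PSMB2 to 791 TPM for PSMA7. On canonical transcript lengths the 3 stood at 13.8 to 33.9 TPM and the others at 25.6 to 885 TPM. PSMD9 was also low, at 1.57 TPM, with 28.77% of its canonical transcript shared.

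The inducible catalytic subunits were below their partners in both groups. In the control, PSMB8 was at 39.0 ± 3.78 TPM, PSMB9 at 9.42 ± 0.28 TPM and PSMB10 at 7.42 ± 1.14 TPM on all exons (SD, n = 3). PSMB5 was at 403 ± 23.7 TPM, PSMB6 at 165 ± 18.2 TPM and PSMB7 at 499 ± 35.6 TPM. With vitamin C, PSMB8 was at 59.0 TPM and PSMB5 at 455 TPM. On canonical transcripts the control levels were 74.1 ± 6.91 TPM for PSMB8, 19.004 ± 0.51 TPM for PSMB9 and 7.59 ± 1.17 TPM for PSMB10 and their partners were at 368, 178 and 558 TPM. PSMB8 and PSMB9 were thus nearer to their partners on this length, and PSMB9 further from PSMB10. With vitamin C, PSMB9 and PSMB10 differed by less than the SD of PSMB9 on either length.

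**Figure D4:**
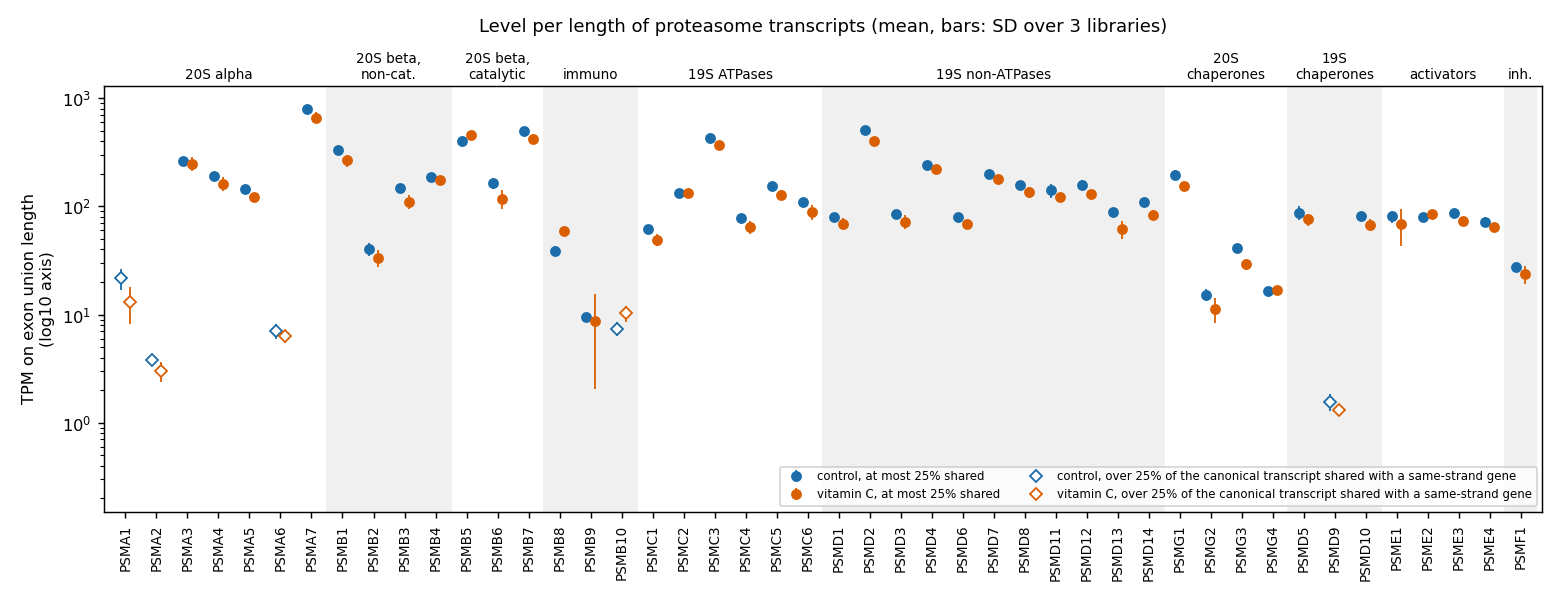
TPM on exon union length (y axis, log10) of the 46 tested members (x axis, by role) in control (blue) and vitamin C (orange), as mean ± SD over 3 libraries. Open diamonds mark members whose canonical transcript shares over 25% of its bases with a same-strand gene, among which PSMA1, PSMA2 and PSMA6 lie at 3.84 to 21.6 TPM in the control, below the other constitutive subunits at 40.6 TPM and over.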

How the data were processed

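RNA-seq was analysed for 6 MDA-MB-231 libraries, 3 control and 3 vitamin C, grouped by the sample labels. Per the file contents, the authors deposited raw read counts for Ensembl genes, not normalized. According to the submitters' processing notes, CASAVA 1.4, Trim Galore and STAR were used with build hg38 (strand setting, STAR version and Ensembl release: not given in the sources used here). The 4 summary lines of each file, with 50.6% to 69.7% of read pairs, were left out. The joint table of the 6 libraries was identical to the single files and was not needed.

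Symbols, lengths and positions came from GENCODE 44, in which 93.2% of identifiers were found. Genes were tested in R 4.3.3 with edgeR 4.0.16 (filterByExpr with a minimum count of 10, TMM, quasi-likelihood F test, Benjamini-Hochberg adjustment over all genes tested), and the members were read from that fit. The scripts were tested on simulated data. The biological coefficient of variation was 9.40%. Between replicates the counts varied beyond sampling noise, with a chi-square of 4.54 to 21.6 for each degree of freedom. Ratios of catalytic subunits were compared by exact permutation tests in SciPy 1.17.1.

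The members and lists were chosen with earlier results of these data known. Values in every library are given for called members, the 6 catalytic subunits, PSME1 and PSME2, and in each role without a call the member with the smallest p. In each other list the rule names up to 4 called genes or the most abundant, plus NFE2L1 and POMP. Other genes named with values (PSMD2, PSMD14, PSMG1, PSMG2, PSMG4, PSMC2, PSMD4, PSMB4, PSMD9, PSME3, PSME4, UBB, TAP1 and B2M) lie outside that rule: their choice was made with values in view. For 1 gene named by the rule, values are not reported here. Alternatives were other factors, filters, thresholds and tests, DESeq2 1.42.0, limma 3.58.1, a replicate block, thinning, GC content and length offsets, and each library left out. Leaving out control 1 with vitamin C 2, and members that share exons, were added after the data were seen.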

Additional observations from a re-analysis of the deposited data

How the results depend on the processing

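PSMB8, IRF1, PSMB7, PSMC1, PSMD10, PSME2, PSMF1, VCP and NFE2L1 kept their side of the threshold under all 16 alternatives run for each. Over all genes, 549 were higher and 531 lower. These counts became 1079 and 1166 with no filter beyond 1 count, 1059 and 923 with the likelihood ratio test, 153 and 115 without control 1 and vitamin C 2 together, and 69 to 942 and 59 to 958 with 1 library left out. DESeq2 called 857 lower, and the replicate block 338. Replicate numbers did not pair the libraries (correlations of the deviations -0.02, -0.06 and -0.05), and with the replicate block 1 member, PSMD13, was lower and 1 pathway gene. Of the members, 1 was higher and 3 were lower. The higher count was 2 with no filter, with the likelihood ratio test and at an adjusted p under 0.1, and 1 to 2 with 1 library left out. The lower count was 9 with no filter, 7 with DESeq2 and 7 with the likelihood ratio test, and 5 with GC content and length offsets. It was 0 without control 1 and vitamin C 2 together, where 8 members were lower at an unadjusted p under 0.05. The share of all genes at that unadjusted threshold was not counted in that fit. The lower count was 0 at an adjusted p under 0.01, 9 under 0.1, and 0 to 10 with 1 library left out. The pathway counts of 3 higher and 4 lower became 1 and 0 without control 1 and vitamin C 2 together, 2 lower with upper-quartile factors and 2 with thinned libraries, and 1 to 5 higher and 0 to 5 lower with 1 library left out. With 1 library left out, the log2 fold change of PSMB9 ranged from -0.81 (without vitamin C 3) to 0.35, and the ratio of PSMB9 to PSMB6, 0.10 with all libraries, ranged from -0.389 to 0.444 with 1 library left out. The median control level of the tested members was 88.5 TPM on all exons and 143.6 TPM on canonical transcripts. The causes were not tested. PSMB10 had 51 to 100 reads per library, and with libraries thinned to the shallowest its adjusted p was 0.125.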
